A study of Mus musculus with 4 samples.

Results

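Young LINE1 (L1) families is used here as a label for a set of mouse L1 retrotransposons, not all of them recently active. The reads studied here are small RNAs of 25 to 31 nt, the length of PIWI-interacting RNAs (piRNAs), that the deposited table named after these families. Members were chosen by name: class LINE, family L1, with a name beginning L1Md, L1_Mm, L1_Mus, L1_Mur or L1VL. This gave 30 families with 64770 distinct sequences and 238079 reads, out of 842 LINE, SINE and LTR families with reads of this length. The A group held 7 families, Gf 2, Tf 3 and F 5, together 146781 reads or 61.7% of the young L1 reads. The other 13 families were named L1MdFanc, L1MdMus, L1MdN, L1MdV, L1VL, L1_Mur and L1_Mus.

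Total RNA of whole testes at postnatal day 16 gave 2 wild-type libraries and 2 labelled as a knockdown of Hsf5, which encodes a testis transcription factor of the heat shock factor family. The labels give no strain, litter or knockdown agent, and the deposited table calls the same libraries knockouts. They call the replicates biological without saying that they came from separate animals, so a p-value measures only the spread between these libraries. In whole testis, fewer cells of a type and less RNA per cell cannot be told apart.

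An L1 element carries a 5′ promoter region, a first frame (ORF1) that encodes an RNA-binding protein and a second frame (ORF2) that encodes an endonuclease and reverse transcriptase. The A, Gf and Tf families contain elements that still move in the mouse, and F is an older lineage. In male germ cells, piRNAs bound by PIWI proteins guide cutting of transposon RNA and methylation of transposon DNA. In the ping-pong cycle, a piRNA with U as its first base guides a cut that makes a partner on the other strand with A at base 10, and the 5′ ends of the pair overlap by 10 nt.

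The sequences below show that some reads under a young L1 name have places outside L1 elements. They are the 2 with most reads in each of the 4 groups among those the rule given with the processing allows, with bases 1 and 10 in capitals and T written for U. That rule leaves out 67.1% of A, 52.1% of Gf, 91.8% of Tf and 72.1% of F reads. It leaves out 99.9% of the A, Gf and F reads and 99.98% of the Tf reads with 100 or more exact places, so the 8 do not stand for their groups and the few L1 matches among them are no result:
L1MdA_VI, 25 nt: AagaaagatTgcaagaactgctaat
L1MdA_VI, 31 nt: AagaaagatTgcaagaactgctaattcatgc
L1MdGf_II, 25 nt, the first: GtgtggaacCtggcgctagaccatt
L1MdGf_II, 25 nt, the other: AgaccattcGtagacgacctgcttc
L1MdTf_II, 26 nt: TaaaatatcTcggtgtgactctaacg
L1MdTf_II, 25 nt: TgtggaataGctagatgtctttgct
L1MdF_V, 25 nt: TacagcatgGcttccgtctccgagc
L1MdF_I, 27 nt: TaagatggcCcatctggcaagaagaac

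The most-read sequence of each group was not among them: it had 834 reads and 25281 exact places in A, 564 reads and 14274 places in Gf, 353 reads and 15030 places in Tf, all in L1 surroundings as defined in the next paragraph, and 2554 reads and 1528 places in F, in LTR surroundings. Of those shown, the 26 nt L1MdTf_II sequence had 47 exact places in the genome (GRCm39, the build named mm39), 37 of them in full-length L1 elements on the sense strand, and 12, 1, 2 and 6 reads in the order used throughout, the wild-type libraries before the knockdown ones and replicate 1 before 2. The L1MdA_VI pair matched the mitochondrial genome from base 11613, in the exon of the mitochondrial serine tRNA gene mt-Ts2, and the 31 nt form had no other place. It had 331, 73, 33 and 180 reads. The 2 L1MdGf_II sequences had no exact place in the assembly and belong to a 154 nt stretch whose overlapping reads the table elsewhere classes as ncRNA. As background, this is the 3′ end of 28S ribosomal RNA, named here from general knowledge and not from a match to a reference. The L1MdF_V sequence had 1 place, chr9:61821692-61821716 on the minus strand, in an exon of Rplp1, which encodes a ribosomal stalk protein, with 356, 176, 188 and 182 reads. The 25 nt L1MdTf_II sequence lay at chr7:73467162-73467186 in an exon of the long non-coding gene Gm21269, and the L1MdF_I sequence at chr14:24135505-24135531 in an intron of Gm52992, both on the plus strand. Within 300 nt the L1MdTf_II sequence had 770 sequences named after piRNA clusters, 8 after L1 and 14 after LTR families. For the L1MdF_I sequence these were 1064, 5 and 26.

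Reads were therefore also sorted by surroundings, a check chosen after these matches were seen: the repeat class that other sequences of the table within 300 nt of a read's places carried. These names come from the same table, and names of genes and piRNA clusters were not counted. The check can therefore miss wrongly named sites. The L1MdF_V sequence in the Rplp1 exon itself counted as L1 surroundings, with 36 L1-named sequences nearby. L1 surroundings do not show that a read came from an L1 element. Of Tf reads, 97.5% lay in L1 surroundings, against 79.1% of A, 63.6% of F and 56.2% of Gf reads. In Gf, 40.3% of reads were of the ncRNA kind, and 8318 reads (38.7%) came from the 154 nt stretch. In A, 6.81% were mitochondrial and 6.79% of the ncRNA kind. In F, 28.4% lay among LTR-named sequences, and in L1MdF_IV, the most-read young family, 51.8%. Tf had the fewest such reads of the 4 groups.

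**Figure D1:**
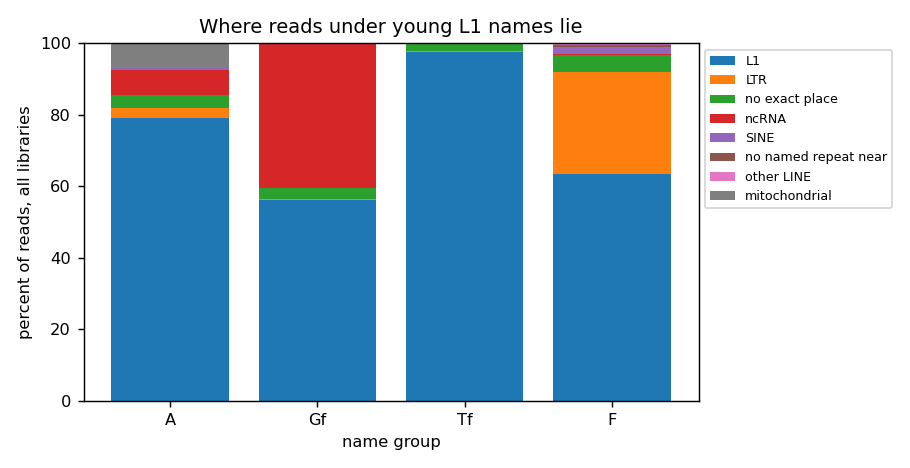
Share of the reads of each name group (percent, all 4 libraries summed) by what surrounds their exact places. Tf stands at 97.5% in L1 surroundings and Gf at 56.2%, with 40.3% of the ncRNA kind.

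The names themselves moved between libraries. Of young L1 reads whose sequence occurred in at least 2 libraries, 53.0% carried different deposited names in different libraries, and the share was 69.2% in A, 43.5% in Gf, 80.4% in Tf and 75.1% in F. The group itself differed, names outside young L1 included, for 54.8% in A, 42.5% in Gf, 59.7% in Tf and 66.5% in F. A name outside young L1 occurred in some library for 18.4% of these young L1 reads and for 43.1% in F. Membership of the groups and of the young set is therefore unstable. Each sequence was given 1 name over all libraries for this reason. The 4 groups share related sequences and are not independent of each other.

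The libraries held 9260452 to 11117460 reads, of which 45.2% to 64.4% were of 25 to 31 nt. Knockdown replicate 1 stood apart, with 18.2% of these reads at 29 to 31 nt against 31.8% to 37.6% in the others. Reads of the ncRNA class made up 12.4% of the 25 to 31 nt reads in wild type replicate 1 and 5.31% to 8.16% in the others.

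No young L1 family was called between genotypes. Their summed level was 13348, 9389, 9097 and 10218 reads per 1000000 reads of 25 to 31 nt (RPM), a mean of 11368 ± 2800 (SD, n = 2) in the wild type and 9658 ± 792 (SD, n = 2) in the knockdown. Wild type replicate 1 was the highest, and wild type replicate 2 lay between the knockdown libraries. The exact two-sided permutation test gave p = 0.667 (adjusted over 5 levels, 0.833), and 2 libraries against 2 cannot go below 0.33. Without wild type replicate 1 the difference, knockdown minus wild type, turned to 268.8 RPM.

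The A group stood at 3012, 1798, 1598 and 2139 RPM, and the knockdown libraries bracketed wild type replicate 2. In L1 surroundings alone its levels were 2251, 1444, 1151 and 1852 RPM. Its most-read families were L1MdA_III with 603, 396, 329 and 529 RPM, L1MdA_VI with 653, 326, 345 and 391 RPM and L1MdA_VII with 532, 294, 287 and 253 RPM. Without mitochondrial reads L1MdA_VI stood at 400, 246, 233 and 254 RPM, so 65.9% of its reads were left.

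The Gf group stood at 1673, 804, 772 and 604 RPM, and both knockdown libraries were below both wild-type libraries (exact permutation p = 0.33, adjusted 0.833). Reads of the 154 nt stretch ran at 824, 314, 370 and 42.0 RPM, highest in wild type replicate 1 and lowest in knockdown replicate 2, and here the genotypes overlapped. Without them Gf stood at 848, 490, 401 and 562 RPM, and the genotypes overlapped too. With all its reads, the Gf difference of -550.6 RPM came to -116.3 RPM without wild type replicate 1 and to -984.9 RPM without wild type replicate 2. L1MdGf_II went from 1398, 652, 627 and 402 RPM to 574, 337, 256.4 and 360 RPM, and L1MdGf_I, which is 97.4% in L1 surroundings, had 274, 152, 145 and 202 RPM.

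The Tf group was the smallest of the 4, with 766, 479, 436 and 730 RPM, and each knockdown library lay close to 1 wild-type library. L1MdTf_III had 262, 173, 144 and 321 RPM, L1MdTf_II 273, 170, 158 and 238 RPM and L1MdTf_I 231, 137, 134 and 170 RPM. The F group was the largest, with 3470, 2441, 2711 and 2519 RPM, and both knockdown libraries lay between the wild-type libraries. In L1 surroundings alone F had 2209, 1527, 1395 and 1821 RPM. L1MdF_IV had 1541, 1074, 1292 and 997 RPM, L1MdF_III 754, 544, 587 and 568 RPM and L1MdF_V 636, 395, 406 and 454 RPM.

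**Figure D2:**
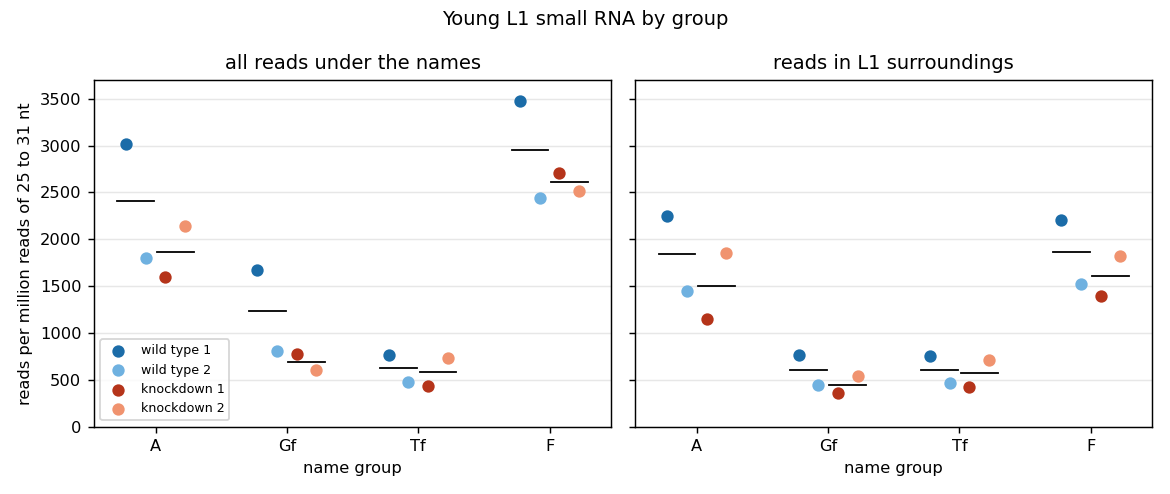
Level of each name group (RPM, linear axis) in the 4 libraries, for all reads under the names and for reads in L1 surroundings. Points are libraries and black lines are the means of 2. Gf is the only one of the 4 groups whose genotypes do not overlap with all reads, and none is apart in L1 surroundings.

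Outside the 4 groups, L1MdV_III had 846, 840, 429 and 828 RPM and L1MdFanc_II 583, 601, 449 and 824 RPM. L1MdFanc_I had 515, 344, 244 and 427 RPM. L1_Mur3 had 632, 598, 889 and 506 RPM, and knockdown replicate 1, low in the families before it, was here the highest. The L1_Mur families differed from the rest in place: 75.5% of their reads had 1 exact place, against 44.0% in L1MdV, 25.9% in L1MdFanc and 1.78% in Tf, and 53.3% lay among sequences named after piRNA clusters, against 10.2% over all young L1 reads. A sequence of L1_Mur3 and one of L1MdV_III, each with 1 exact place, are shown for their levels in knockdown replicate 1, and were chosen after the values were seen.
L1_Mur3, 26 nt: TtcctgtagAatttccggtctggtca
L1MdV_III, 30 nt: TacataaggCtgctatgaacatggtgaagc

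The L1_Mur3 sequence lay at chr17:27561409-27561434, plus strand, in an exon of the long non-coding gene Gm10505, with 457, 302, 502 and 562 reads. Its levels were 79.5, 56.7, 115.3 and 79.999 RPM, highest in knockdown replicate 1, although knockdown replicate 2 had the most reads. The L1MdV_III sequence lay at chr7:73455313-73455342, minus strand, in an intron of Gm10619, with 138, 109, 0 and 301 reads. A count of 0 in knockdown replicate 1 allows up to 0.689 RPM, for counting error only, and the other libraries had 24.02, 20.5 and 42.8 RPM.

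All 30 families passed the filter of 1 CPM (count per 1000000) in 2 libraries. With edgeR's quasi-likelihood fit of 793 transposon families and adjusted p (Benjamini-Hochberg), 0 of 30 were called, and 0 of the 793 (a background of 0%). At an unadjusted p under 0.05 the young families gave 0 and all families 16, and DESeq2 called 0 as well. The log2 fold change, knockdown against wild type, was below 0 in 24 of 30 families with a median of -0.18, beside a median of -0.01 over all families. Without wild type replicate 1 it was above 0 in 23 of 30, with a median of 0.14. In the edgeR fit the lowest p toward lower values belonged to L1MdGf_II (log2 fold change -0.96 ± 0.44 SE, adjusted p = 0.996), L1MdA_V (-0.66 ± 0.45) and L1MdA_VII (-0.58 ± 0.42). With L1 surroundings only, L1MdGf_II came to -0.47. Toward higher values they were L1_Mur1 (0.32 ± 0.45), L1_Mur3 (0.22 ± 0.39) and L1_Mur2 (0.16 ± 0.38), and L1_Mur1 turned to -0.31 with L1 surroundings only and to -0.24 without knockdown replicate 1. For 5 of 30 families each knockdown level in RPM was under each wild-type level (background 11.6%) and for 1 above (background 12.7%). In L1 surroundings these counts were 1 and 0. Families outside young L1 were not sorted by surroundings, so these 2 counts have no background and nothing is read from them.

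In each of the 4 groups reads were longer than those of old L1 families, which are all other L1 names. The share of 29 to 31 nt was 40.7%, 38.7%, 27.4% and 40.9% in A, and exceeded that of old L1 in 4 of 4 libraries by a mean of 12.4 points. It was 37.7%, 36.9%, 24.3% and 43.1% in Gf, 38.6%, 38.2%, 28.2% and 37.3% in Tf and 37.2%, 35.2%, 21.7% and 39.9% in F. Knockdown replicate 1 was the lowest in each of the 4 groups, as in all reads of this length. In Tf both knockdown shares were under both wild-type shares (exact permutation p = 0.33, adjusted over the shares 1), and in A, Gf and F the genotypes overlapped. The most common length was 27 nt in A in all 4 libraries, and 28, 28, 27 and 28 nt in Tf.

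The first base was T for 57.5%, 62.4%, 57.6% and 68.2% of A reads, and for 47.5%, 51.2%, 47.2% and 71.5% of Gf reads. Tf had 68.2%, 69.7%, 71.4% and 78.1%, and F 76.1%, 76.9%, 77.9% and 78.8%. All 4 groups were below old L1 in 4 of 4 libraries, with mean differences, group minus old L1, of -23.0, -30.1, -12.6 and -7.06 points. With L1 surroundings only these were -14.05, -12.2, -12.8 and -11.04 points. Old L1 reads were not sorted by surroundings, so a sorted set stands here beside an unsorted one. Between genotypes the first T share was higher in both knockdown libraries in Tf and F (exact permutation p = 0.33, adjusted 1) and overlapped in A and Gf. With L1 surroundings only, and with distinct sequences counted once, the genotypes stayed apart in Tf but overlapped in F. With deposited names the difference in F came from 1.87 to 0.01 points.

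Base 10 was A in 53.0%, 53.5%, 51.4% and 53.6% of Tf reads, the highest share of the 4 groups. It was A in 44.7%, 45.4%, 42.5% and 46.4% of A reads and in 45.0%, 45.2%, 41.9% and 46.1% of F reads. Gf had 37.3%, 40.9%, 35.1% and 51.1%. With L1 surroundings only, Gf exceeded old L1 by 28.1 points, beside 27.8 in Tf, 26.004 in A and 20.6 in F. Here too, old L1 reads were not sorted by surroundings. Old L1 had 26.1%, 26.3%, 23.1% and 25.7%, and LTR families 34.1%, 33.4%, 30.5% and 32.6%. Each group was above old L1 in 4 of 4 libraries (exact sign-flip test over libraries, p = 0.125, the smallest that 4 libraries allow), a comparison chosen after the values were seen. Between genotypes these shares overlapped in all 4 groups. In old L1 and in LTR families both knockdown shares were below both wild-type shares (exact permutation p = 0.33 in each).

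Strand was read from 3368 full-length L1 elements, found in the genome by an open ORF2 frame with a median of 3903 nt. Of the reads of the 4 groups, 64831 (44.2%) lay in them on 1 main strand, 93.2% of Tf but 22.8% of F reads. Antisense reads, those complementary to L1 RNA, made up 40.6%, 38.5%, 38.1% and 35.7%. By group, F had the most antisense reads, with 47.6%, 47.6%, 45.8% and 46.9%, and Tf the fewest, with 30.5%, 29.8%, 26.7% and 23.5%. Reads that matched the elements on both strands without a main one were left out. They made up 27.4% of F reads, more than the share kept, against 8.48% of A, 0.94% of Gf and 0.73% of Tf reads. The lineage of the elements was not determined. Both knockdown libraries were below both wild-type libraries in A, Tf and F, but not in Gf (42.8%, 39.0%, 45.3% and 38.03%), and each exact permutation p was 0.33 or above.

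The strands differed in their bases. Sense reads had A at base 10 in 65.2%, 65.6%, 59.8% and 60.4%, and antisense reads in 39.1%, 36.4%, 38.1% and 41.2%. Antisense reads began with T in 80.4%, 80.2%, 80.2% and 81.9%, and sense reads in 62.1%, 63.0%, 62.4% and 70.0%. In each of the 4 groups sense reads had more A at base 10 and fewer first T in 4 of 4 libraries (exact sign-flip p = 0.125, chosen after the values were seen).

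The share of A at base 10 among sense reads was lower in both knockdown libraries than in both wild-type libraries in each of the 4 groups. It was 63.0%, 63.6%, 58.7% and 58.9% in A, and 72.6%, 72.4%, 65.1% and 64.7% in Gf. In Tf it was 61.6%, 63.7%, 58.3% and 59.2%, and in F 67.3%, 66.3%, 60.0% and 62.3%. The differences of the means were -4.50, -7.65, -3.86 and -5.69 points, and the exact permutation p was 0.33 in each, the smallest possible. This comparison was added after the values were seen. Counting each distinct sequence once, the genotypes still did not overlap in A and F (-3.31 and -4.30 points) but overlapped in Gf and Tf (-2.76 and -1.76 points). Over all transposon families with 200 or more reads in each library, without regard to strand, the knockdown shares were under the wild-type shares in 24.1% and over them in 7.14%, and among young L1 families in 4 and 2 of 27. Antisense reads gave 1.22, 4.20, 3.57 and 0.40 points in A, Gf, Tf and F. Both knockdown libraries were above both wild-type libraries in Gf (30.2%, 32.6%, 32.8% and 38.5%) and Tf (35.6%, 31.5%, 35.7% and 38.4%). The exact permutation p was 0.33 in each, and the genotypes overlapped in A and F. Counting each distinct sequence once, the antisense shares stayed apart in Tf alone.

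**Figure D3:**
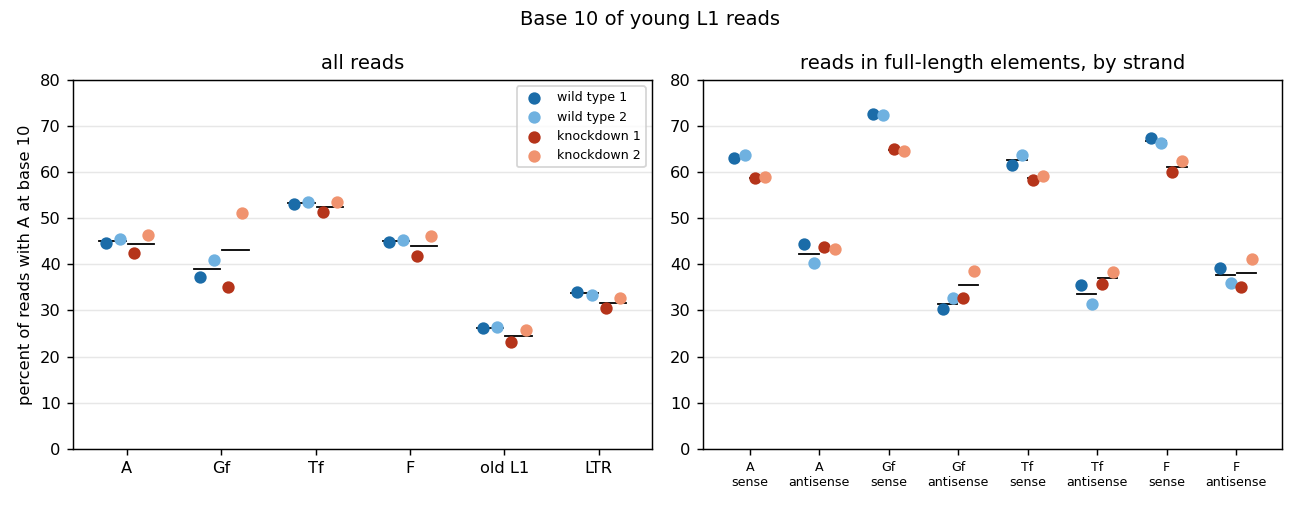
Percent of reads with A at base 10 in each library, for all reads of each group beside old L1 and LTR families, and for sense and antisense reads in full-length elements. Points are libraries and black lines are means of 2. Sense reads lie between 58.3% and 72.6%, above antisense reads in every group and library, and knockdown points lie below wild-type points on the sense strand.

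Reads were spread unevenly along the elements. Of sense reads of the 4 groups, 51.0% began in the second part of the ORF2 frame and 22.5% within 700 nt after it, and of antisense reads 42.0% and 15.2%. F sense reads also had 17.9% from -3000 to -2000 nt, counted from the start of the frame, against 0.40% in Tf.

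In Tf, 1 library stood apart at 1 site. Reads that share their first 21 bases, with a median start of -1818 nt on the sense strand, counted 68, 54, 37 and 625, or 12.2% of the Tf reads of knockdown replicate 2. A 26 nt L1MdTf_III sequence among them had 2, 1, 1 and 158 reads. Without these reads Tf stood at 754, 469, 428 and 641 RPM, and A at base 10 of its sense reads was 60.6%, 62.4%, 57.1% and 51.2%.

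**Figure D4:**
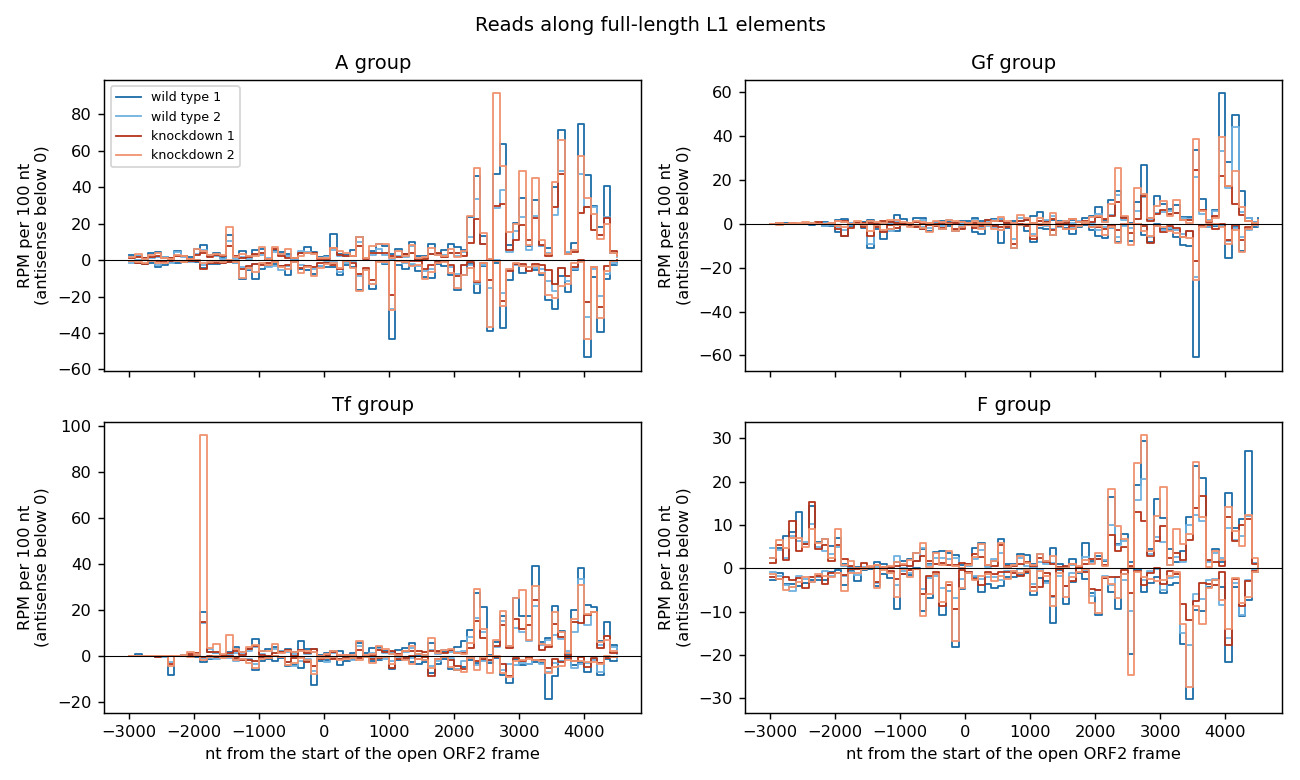
Reads of each group (RPM per 100 nt) by the position of their 5′ end relative to the start of the ORF2 frame, with sense above 0 and antisense below, 1 line per library. Knockdown replicate 2 alone reaches 96.1 RPM in Tf from -1900 to -1801 nt, and most other reads lie in the second part of the frame and after it.

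The most common overlap of opposite strands depended on how reads were counted. Overlaps of 1 to 20 nt between 5′ ends in the same element were weighted by reads, each sequence's reads being split evenly over its elements. Of these, 25.9%, 17.4%, 17.1% and 23.2% were of exactly 10 nt in the 4 groups together, the most common overlap in 3 of 4 libraries, and in knockdown replicate 1 the next after 11 nt. Counting distinct sequences once, the shares were 11.0%, 10.02%, 8.99% and 13.7%, and 10 nt ranked first in wild type replicate 1 alone. The most common was 19 nt in wild type replicate 2 (14.3%), 11 nt in knockdown replicate 1 (17.3%) and 13 nt in knockdown replicate 2 (17.8%). The genotypes overlapped in both. A weighting by the square root of the number of elements, added after the even split had been seen, gave 35.5%, 27.4%, 31.3% and 30.4%, with 10 nt first in 4 of 4 libraries.

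By group the overlap shares depended on the weighting. With the even split A had 19.6%, 8.14%, 30.1% and 32.1%, and F 12.1%, 9.96%, 3.68% and 7.19%, so that the genotypes were apart in opposite directions. In A 10 nt was the most common overlap in 3 of 4 libraries, with 18 nt at 29.5% in wild type replicate 2, and in F in none, ranking 2, 3, 11 and 3. With the added weighting A had 23.3%, 20.4%, 22.9% and 19.4%, and F 26.1%, 29.2%, 30.9% and 36.0%: the difference in F turned its sign and the genotypes overlapped in A. Gf had 36.5%, 31.03%, 28.6% and 34.5%, and Tf 22.7%, 19.0%, 16.4% and 15.8% with the even split. In Gf 9 nt was more common than 10 nt in 4 of 4 libraries, at 41.6%, 39.4%, 33.9% and 41.7%. In Tf 10 nt was the most common in 2 of 4, and the genotypes were apart but overlapped with the added weighting. No direction between genotypes is read from these shares.

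**Figure D5:**
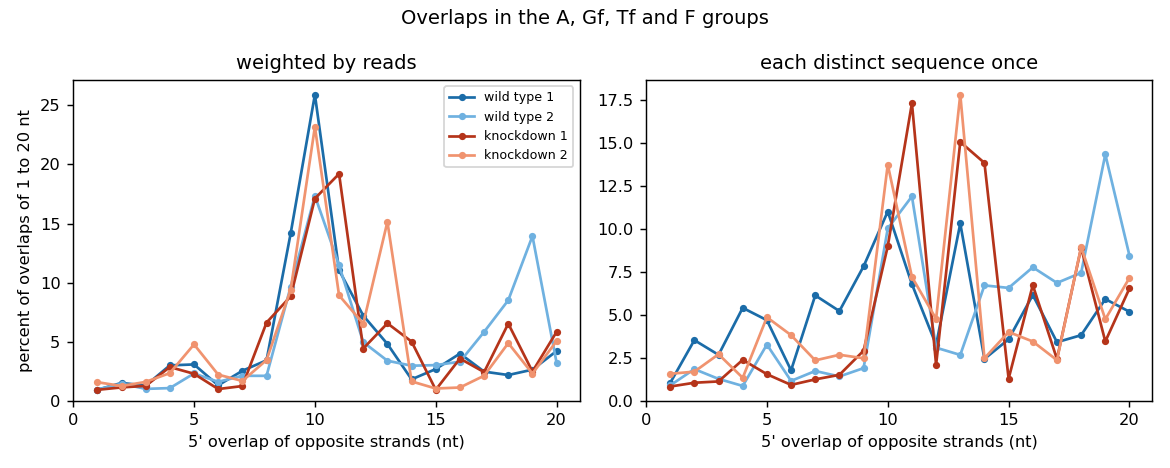
Percent of the 5′ overlaps of 1 to 20 nt between opposite strands that have each length, in the A, Gf, Tf and F groups together, by reads split evenly over elements and by distinct sequences. Lines are libraries. By reads the 10 nt share lies between 17.1% and 25.9%, and by distinct sequences the peak is less clear.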

How the data were processed

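The table the authors deposited gave raw read counts per distinct sequence and library, with a name, class and length, and a ratio, the authors' scaling factor, equal to 1000000 divided by the mature miRNA reads and used here as an alternative scaling. Inserts of 18 to 40 nt were selected, per the labels' protocols. The submitters' processing notes name cutadapt and mm39. The aligner, its mismatches and the class order, which sets the reads that count as L1, are not given in the sources used. Each of 6208912 pairs of sequence and library was counted once, and each sequence took the name with most reads over the libraries.

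Levels are reads per 1000000 of 25 to 31 nt (5745703, 5326809, 4352106 and 7025053 reads). Sequences were matched exactly to GRCm39 and annotated with GENCODE. Shares and levels were compared by exact two-sided permutation over 6 assignments. Families were tested with edgeR 4.0.16 (quasi-likelihood, robust, TMM factors, 1 CPM in 2 libraries), with DESeq2 1.42.0 as an alternative. On simulated data with the fitted spread, the family test recovered 60% of 4-fold and 11% of 2-fold changes among 792 families. The matching found 500 of 500 planted sequences.

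The members and lists were chosen with earlier results of these data known. Named were the 4 groups, the 3 most-read families of each, the 4 most-read young families outside them, the 3 lowest p in each direction and the 2 most-read sequences of each group, leaving out any that match mouse chromosome 18, which removes nearly all sequences with many places. The check of surroundings, the strand-specific base shares, the comparisons within libraries and the square-root weighting were added after values were seen; the even split was run first and is kept as the main value. Alternatives covered scaling, filter, names, length range, distinct sequences, left-out libraries and the replicate block.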

Additional observations from a re-analysis of the deposited data

How the results depend on the processing

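No young L1 family was called under any setting of the family test. Over all families 0 to 53 were called when a library was left out (53 without knockdown replicate 2, 8 without knockdown replicate 1), 1 with the replicate block and 0 otherwise. Same-numbered libraries deviated together with r = 0.23 over 793 families, but the labels state no pairing, so the replicate block is only an alternative.

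With 2 libraries a group, directions between genotypes often hung on 1 library. Leaving out each in turn moved the level difference from -3691 to 268.8 RPM for all young L1, -1144 to 70.7 for A, -984.9 to -116.3 for Gf, -186.4 to 107.4 for Tf and -855.3 to 174.1 for F. The share of 29 to 31 nt moved from -12.3 to 1.16 points in A, -13.0 to 5.75 in Gf and -14.4 to 3.67 in F. First T moved from -2.36 to 8.21 in A and -2.09 to 22.2 in Gf. Base 10 A moved from -2.60 to 1.29 in A, -4.00 to 12.1 in Gf, -1.87 to 0.35 in Tf and -3.18 to 1.03 in F. The antisense share of Gf moved from -2.91 to 4.41, and 10 nt overlaps from -5.14 to 0.72 in Gf and -5.76 to 2.80 in the 4 groups. Base 10 A of sense reads lay between -7.85 and -2.82 points in the 4 groups. Its sign could not change there, because the genotypes did not overlap in any of them, so this is no added support.

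Counting distinct sequences once reversed the Tf level (33.5 per 1000000 distinct sequences), base 10 A in A (0.19) and Tf (0.76), the antisense share of Gf (-0.66), and 10 nt overlaps in Gf (4.29), Tf (1.30) and the 4 groups (0.85). Deposited names reversed base 10 A in F (6.49), and L1 surroundings that in Gf (-2.97). The square-root weighting, chosen after the even split was seen, reversed 10 nt overlaps in A (-0.68), Tf (0.38) and F (5.82). The cause was not tested.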
